A study of Saccharomyces cerevisiae with 12 samples.

Results

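The transcripts of 10 genes that make or break down the aroma compounds of wine, the acetate and ethyl esters and the fusel (higher) alcohols, were followed in a pair of fermenting strains of Saccharomyces cerevisiae. The genes were ATF1 (YOR377W), ATF2 (YGR177C), EEB1 (YPL095C), EHT1 (YBR177C), IAH1 (YOR126C), ARO8 (YGL202W), ARO9 (YHR137W), ARO10 (YDR380W), BAT1 (YHR208W) and BAT2 (YJR148W). They were chosen by name, by a rule that uses no signal but with earlier results of these data known, from the 5656 genes that had a probe set with a single gene symbol. Each of the 10 had exactly 1 such probe set, and all 10 passed the filter on low signals. The strains were EC1118, which is sold commercially, and M25, a wild-type strain kept in a university culture collection. Both were grown in a synthetic juice (SJ) of pH 3.3 with 200 g/l glucose, 2 g/l ammonium sulphate and a nitrogen base free of amino acids, the preculture being kept at 28°C. The lipid-supplemented juice (FSJ) held ergosterol and oleic acid as well, each at 15 mg/l. Cells were taken 60 h after inoculation with 1000000 cells/ml from a 24 h preculture in SJ, with 3 biological replicates in each of the 4 groups so formed, and 1 one-colour array per sample.

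Yeast makes fusel alcohols by the Ehrlich pathway, in which an aminotransferase turns an amino acid into a 2-oxo acid, a decarboxylase turns that acid into an aldehyde, and an alcohol dehydrogenase reduces the aldehyde. An alcohol acetyltransferase then joins the alcohol to acetyl-CoA to give an acetate ester such as isoamyl acetate, the banana note of wine, while other enzymes join ethanol to fatty acyl-CoA to give the fruity ethyl esters, and esterases hydrolyse the products. ATF1 is known to be repressed by oxygen and by unsaturated fatty acids, and ARO9 and ARO10 are known to be induced by aromatic amino acids through the activator Aro80.

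More of these genes were called between the strains than between the media, and the same held for all probe sets. Between EC1118 and M25, 3 of the 10 genes differed in SJ (1 higher and 2 lower in EC1118), where 19.8% of all 7349 probe sets kept were called, and 6 of the 10 differed in FSJ (2 higher and 4 lower), where 35.1% were called. A call is an adjusted p under 0.05 in limma, with the Benjamini-Hochberg correction taken across all 7349. With lipids, 2 of the 10 changed in M25, namely ATF1, which fell, and ARO8, which rose, against 8.75% of all probe sets. In EC1118 none of the 10 passed in limma, against 1.85% of all probe sets, and 1 of the 10 had an unadjusted p under 0.05. Averaged over the strains, 1 of the 10 passed (ARO8), against 9.09%. The lipid effect differed between the strains for none of the 10 in limma (1 at an unadjusted p under 0.05), against 0.204% of all probe sets. The median log2 difference of the 10 was -0.0047 with lipids in M25 and -0.028 in EC1118, beside -0.092 and 0.065 for all probe sets. Between strains it was -0.12 in SJ and -0.50 in FSJ, beside -0.038 and 0.13. With 10 genes these shares are read as counts and not as an enrichment. Groups without any overlap of their arrays were found for 3 of the 10 genes with lipids in M25 (34.7% of all probe sets) and 1 in EC1118 (18.5%), and for 6 between strains in SJ (41.9%) and 6 in FSJ (44.7%). The comparisons share arrays, since each group enters more than 1 of them.

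**Figure D1:**
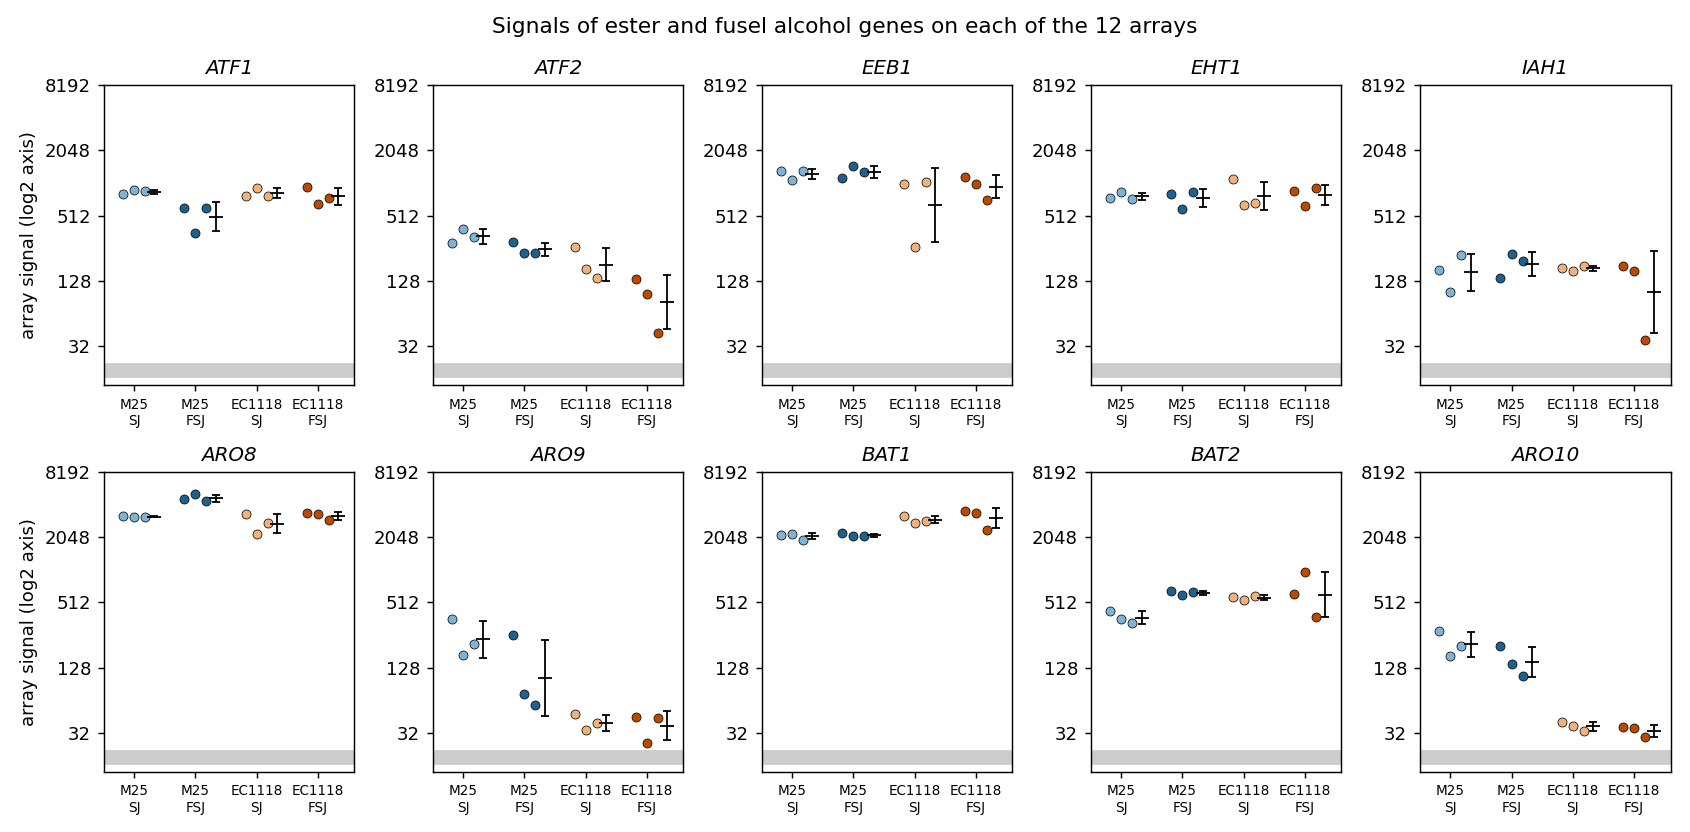
Array signal (vertical log2 axis) of each of the 10 genes in the 4 groups of strain and medium. Each point is 1 array, the black mark and bar beside each group are the mean and 1 SD of the log2 signals (n = 3), and the grey band is the range of the background over the arrays, 16.6 to 21.7. ARO9 and ARO10 sit near the band in EC1118, and 1 array of EC1118 in FSJ is low for ATF2 and IAH1.

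The signals are MAS5 values on a linear scale, and the mean of each array without its lowest and highest 2% was 300.2 to 300.3. The background of an array, the 25th percentile of its yeast probe sets, was 16.6 to 21.7, and all 10 genes were over it on all 12 arrays. The arrays of EC1118 in FSJ were less alike than those of the other groups, with correlations of log2 signals of 0.919 to 0.962 against 0.970 to 0.986. In FSJ, replicate 3 of EC1118 gave the lowest signal of its group for 7 of the 10 genes, and replicate 1 the highest for 8. In SJ, replicate 2 of EC1118 gave the lowest for 7. The BioDn hybridisation control read 432 on replicate 2 of EC1118 in FSJ and 999.7 to 1446 on the others. The part of these arrays in the results was tested only by leaving each one out. Fermentation progress was not analysed here, so a difference of medium or strain cannot be told apart from a difference of growth stage at 60 h. Whether the strains differ in sequence at the probe sites was not tested, and this bears on every comparison of EC1118 with M25. Precision is limited by the number of arrays, 3 per group.

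ATF1 encodes the main alcohol acetyltransferase, the enzyme that makes most of the isoamyl and ethyl acetate. Its signals in M25 were 805.4, 876.6 and 853.9 in SJ and 596.3, 352.1 and 594.5 in FSJ. All arrays of M25 in FSJ lay below all those in SJ. In M25 it fell by 0.76 on the log2 scale (SE 0.20), from 845 ± 36.4 to 514 ± 140 (SD, n = 3), or 1.69-fold (limma adjusted p = 0.0374). The signals in EC1118 were 773.6, 926.3 and 772.6 in SJ and 936.1, 652.4 and 749.5 in FSJ. These ranges overlapped, and the fitted log2 difference was -0.09 (95% interval -0.53 to 0.35, adjusted p = 0.876). The fall in M25 was a narrow call: its adjusted p ran from 0.0288 to 0.111 over the alternatives and stayed under 0.05 in 11 of 22 of them. It was over 0.05 with quantile normalization (0.0745), with arrays centred on their medians (0.0867), with only the M25 groups in the fit (0.0675), without the filter (0.0584) and without the intensity trend (0.055). Leaving out any 1 of 5 arrays also lost it: in SJ, replicate 1 (0.085), 2 (0.111) or 3 (0.105) of M25 or replicate 3 of EC1118 (0.0541), and in FSJ, replicate 2 of M25 (0.0906). Without that last array the log2 difference was -0.50, and without each of the other 4 it was -0.79 to -0.73. The difference between the strains in the lipid effect was 0.67 on the log2 scale (SE 0.28, adjusted p = 0.304) and did not pass, nor did the averaged lipid effect of -0.42 (SE 0.14, adjusted p = 0.088).

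Between strains, ATF1 had a log2 difference of -0.04 in SJ (95% interval -0.48 to 0.40, limma adjusted p = 0.921) and was 1.54-fold higher in EC1118 in FSJ. All arrays of EC1118 in FSJ lay above those of M25 in FSJ, by 0.62 on the log2 scale (SE 0.20, limma adjusted p = 0.0305). That call too was narrow, and was lost with quantile normalization (0.0554), with centred arrays (0.164), with only the 2 groups in the fit (0.104), and without M25 in FSJ replicate 2 (0.0955, with a log2 difference of 0.37), EC1118 in FSJ replicate 1 (0.106) or 3 (0.0564).

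ATF2, the second alcohol acetyltransferase, which also acetylates sterols, was lower in EC1118. M25 gave 283.1, 384.6 and 327.2 in SJ and 292.2, 230 and 231.5 in FSJ. EC1118 gave 264.1, 163.4 and 134.7 in SJ and 131.6, 97 and 42.7 in FSJ. In each medium every array of EC1118 was below every array of M25. In FSJ the means were 90.4 ± 44.8 in EC1118 and 251 ± 35.5 in M25 (SD, n = 3), 3.06-fold lower (log2 difference -1.61, SE 0.36, limma adjusted p = 0.00455), a call kept under all 22 alternatives. In SJ the log2 difference of -0.87 (SE 0.36) did not pass (adjusted p = 0.114, and 0.0225 to 0.319 over the alternatives). It passed without EC1118 in FSJ replicate 3 (0.0225), the array with the signal of 42.7, and with only the 2 SJ groups in the fit (0.0314).

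With lipids, the ATF2 signals of EC1118 in FSJ all lay below those in SJ. The log2 difference was -1.14 (SE 0.36, 95% interval -1.92 to -0.35), with a limma adjusted p of 0.156. It was -0.67 without EC1118 in FSJ replicate 3 (adjusted p = 0.232). In M25 it was -0.40 (adjusted p = 0.529) with overlapping arrays, and averaged over the strains -0.77 (SE 0.25, adjusted p = 0.0856; 0.0341 without EC1118 in FSJ replicate 1).

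EEB1 and EHT1 encode the acyl-CoA:ethanol O-acyltransferases that make the medium-chain ethyl esters, with EEB1 the main one. For EEB1, M25 gave 1308.1, 1083.9 and 1308.1 in SJ and 1137, 1460.4 and 1299.9 in FSJ, and EC1118 gave 991.1, 260.7 and 1035.2 in SJ and 1166.4, 1010 and 717.4 in FSJ. A single array, EC1118 in SJ replicate 2, stood far below its group mates. No EEB1 difference passed the test. The log2 difference between strains in SJ was -0.93 (SE 0.42, adjusted p = 0.147), with all EC1118 arrays below all M25 arrays, and -0.28 without that array (adjusted p = 0.403). The lipid effect in EC1118 likewise went from 0.55 (adjusted p = 0.551) to -0.099 without it (adjusted p = 0.88). In M25 the lipid effect was 0.073 (95% interval -0.83 to 0.98).

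EHT1 showed the least difference between groups. Its signals ran from 593.1 to 1101.7 over the 12 arrays, with SJ and FSJ means of 768 ± 59.3 and 753 ± 140 for M25 and of 799.9 ± 262 and 804 ± 159 for EC1118 (SD, n = 3). The averaged lipid effect was -0.0051 on the log2 scale with a 95% interval of -0.35 to 0.34 (limma adjusted p = 0.987). The strain differences were 0.013 in SJ and 0.093 in FSJ (adjusted p = 0.975 and 0.783).

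IAH1 encodes the esterase that hydrolyses isoamyl acetate and other acetate esters. Its signals were 161.1, 101.3 and 221.7 (M25 in SJ), 137, 225.5 and 195.5 (M25 in FSJ), 168.4, 158.3 and 176.6 (EC1118 in SJ) and 175.5, 157.6 and 36.7 (EC1118 in FSJ). The last of these stood apart, and the groups overlapped in every comparison. No difference passed the limma test, and the lipid effect was 0.25 in M25 (adjusted p = 0.804) and -0.74 in EC1118 (adjusted p = 0.498) on the log2 scale. Without EC1118 in FSJ replicate 3 the EC1118 value was -0.011 (adjusted p = 0.993), and the strain difference in FSJ went from -0.86 to -0.13.

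**Figure D2:**
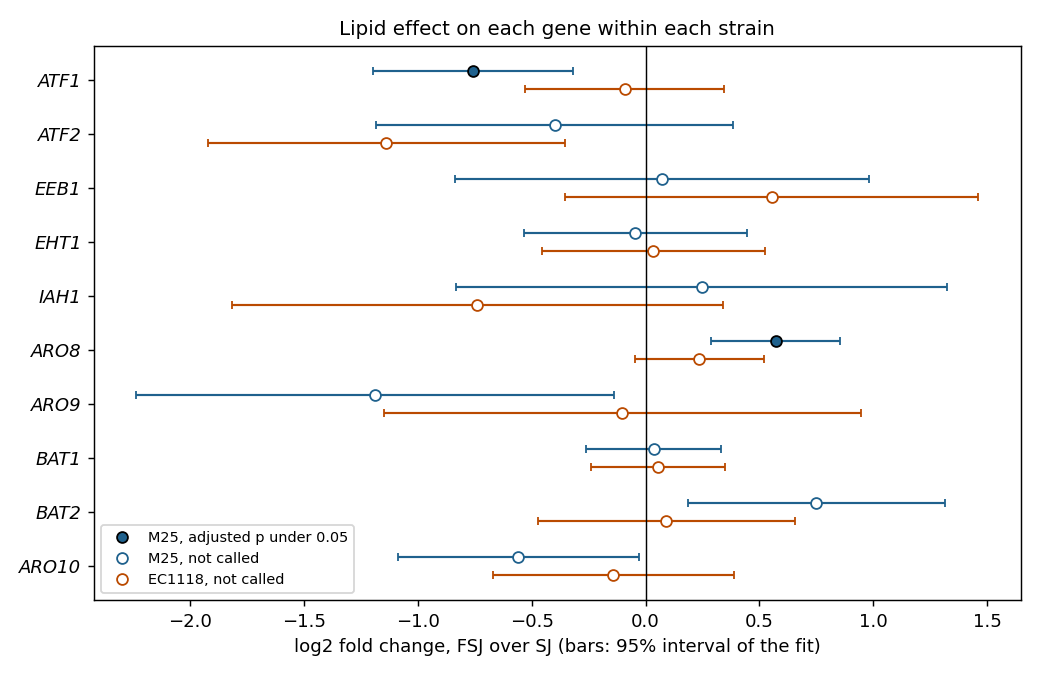
Fitted log2 fold change of FSJ over SJ (horizontal axis) for each gene in M25 (blue) and EC1118 (orange), with bars for the 95% interval of the fit, not adjusted for the number of genes. Filled points passed the threshold: ATF1 at -0.76 and ARO8 at 0.57, both in M25.

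The first step of the Ehrlich pathway is run by aminotransferases. ARO8 and ARO9 encode the aromatic ones, of which Aro8 serves mainly the synthesis of phenylalanine and tyrosine and Aro9 mainly their breakdown. ARO8 gave 3164.7, 3140.3 and 3111.7 in M25 in SJ and 4552.4, 5056.8 and 4404.4 in M25 in FSJ. The groups were far apart relative to the spread, and ARO8 rose by 0.57 on the log2 scale in M25 (SE 0.13), from 3139 ± 26.5 to 4671 ± 342 (SD, n = 3), or 1.49-fold (limma adjusted p = 0.0198). EC1118 gave 3335.6, 2200.1 and 2747.4 in SJ and 3404.1, 3323.2 and 2916 in FSJ, an overlapping set with a log2 difference of 0.24 (SE 0.13, 95% interval -0.047 to 0.52, adjusted p = 0.398). Averaged over the strains ARO8 rose by 0.40 (SE 0.092, adjusted p = 0.0179), and this call was kept under all 21 alternatives (0.00382 to 0.0469).

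The ARO8 call within M25 was kept in 17 of 22 alternatives. It was lost with quantile normalization (0.0726), without replicate 1 (0.059), 2 (0.0621) or 3 (0.0668) of M25 in SJ, and without replicate 2 of M25 in FSJ (0.0726). The strains' lipid effects on ARO8 differed by -0.33 (SE 0.18, limma adjusted p = 0.395), which did not pass. In FSJ, ARO8 was 1.45-fold lower in EC1118 than in M25 (log2 difference -0.54, SE 0.13, adjusted p = 0.00718), with all arrays apart and the call kept under all 22 alternatives. In SJ the log2 difference of -0.21 did not pass (adjusted p = 0.315).

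Among the 10 genes, ARO9 and ARO10 had the largest log2 differences between strains in SJ, and ARO10 and ATF2 in FSJ. ARO10 encodes the phenylpyruvate decarboxylase that commits aromatic and branched-chain 2-oxo acids to fusel aldehydes. M25 gave ARO10 signals of 280.3, 165.3 and 202.2 in SJ and 200.4, 137 and 107 in FSJ, against 40.1, 37 and 33.4 and 36.1, 35.3 and 29 in EC1118. The lowest M25 array was thus above the highest EC1118 array by a wide margin. ARO10 was 5.74-fold lower in EC1118 in SJ (36.8 ± 3.35 against 216 ± 58.7, log2 difference -2.52, SE 0.24, limma adjusted p = 2.06e-05) and 4.30-fold lower in FSJ (33.5 ± 3.89 against 148 ± 47.7, log2 difference -2.10, SE 0.24, adjusted p = 5.65e-05; SD, n = 3). By p it ranked 96th of the 7349 probe sets in SJ and 234th in FSJ, the highest ranks among the 10 genes, and both calls were kept under all 22 alternatives.

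ARO9 followed the same division. M25 gave 359.2, 166.2 and 213.3 in SJ and 256.8, 72.3 and 58.1 in FSJ, and EC1118 gave 47.5, 33.7 and 39.3 in SJ and 44.4, 26 and 44.1 in FSJ. No EC1118 array reached the lowest M25 array. In SJ, ARO9 was 5.87-fold lower in EC1118 (40.2 ± 6.94 against 246 ± 101; SD, n = 3; log2 difference -2.55, SE 0.48, limma adjusted p = 0.00281), a call kept under all 22 alternatives. In FSJ it was 2.77-fold lower (log2 difference -1.47, SE 0.48, adjusted p = 0.033). This second call was lost without the filter (0.0639), with only the 2 FSJ groups in the fit (0.0878), and without M25 in FSJ replicate 1 (0.0942, with a log2 difference of -0.81), EC1118 in FSJ replicate 2 (0.0967) or replicate 3 (0.0503).

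The EC1118 signals of both genes lay close to the background, which makes the size of each fold uncertain. They were 1.35 to 2.49 times it for ARO9 and 1.36 to 2.10 times it for ARO10. Whether the strains differ in sequence at these probe sites was not tested, and this bears on the direction too. Raising signals to the background is no check of the fold size. Both genes were over it on all 12 arrays, and their values stay as they are. With an offset of 16 before the log, and over all other alternatives, the ARO10 log2 difference ran from -2.70 to -2.11 in SJ and from -2.34 to -1.69 in FSJ. That of ARO9 ran from -2.80 to -2.16 in SJ and from -1.88 to -0.81 in FSJ.

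**Figure D3:**
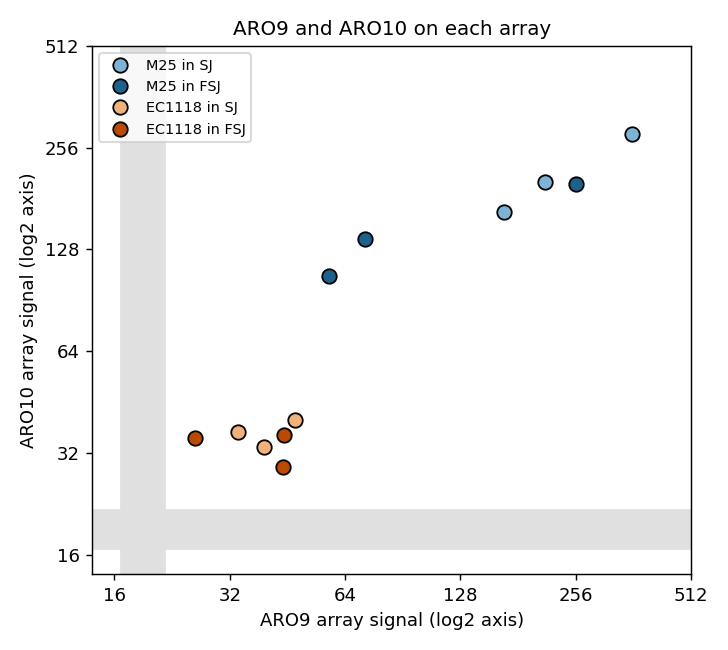
ARO9 signal (horizontal log2 axis) against ARO10 signal (vertical log2 axis) on each of the 12 arrays, coloured by group, with grey bands for the range of the background. The 6 EC1118 arrays lie together at 26 to 47.5 for ARO9 and 29 to 40.1 for ARO10, and the 6 M25 arrays spread from 58.1 to 359.2 and from 107 to 280.3.

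Neither gene passed for the medium. Within M25 the log2 difference of FSJ over SJ was -1.19 for ARO9 (SE 0.48, limma adjusted p = 0.146) and -0.56 for ARO10 (SE 0.24, adjusted p = 0.172). M25 in FSJ replicate 1 stood apart, with 256.8 for ARO9 beside 72.3 and 58.1, and was also the highest of its group for ARO10. Without it the ARO9 difference in M25 was -1.85 (adjusted p = 0.0112) and the averaged effect -0.98 (adjusted p = 0.0259). In EC1118 the lipid differences were -0.10 for ARO9 (95% interval -1.15 to 0.95) and -0.14 for ARO10 (95% interval -0.67 to 0.39). Over the M25 arrays the pair kept nearly the same order, with replicate 1 in SJ highest and replicate 3 in FSJ lowest for both genes. The probe set of ARO80, their activator, was under the background on all 12 arrays (signals of 6.6 to 16.5), so no level of it can be given.

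BAT1 and BAT2 encode the branched-chain aminotransferases of the mitochondrion and the cytosol. Bat1 serves mainly the synthesis of valine, leucine and isoleucine, and Bat2 mainly their breakdown towards isobutanol and isoamyl alcohol. For BAT1, M25 gave 2134.1, 2176.1 and 1934 in SJ and 2206.9, 2103.1 and 2083.6 in FSJ, and EC1118 gave 3209.4, 2772.9 and 2898.5 in SJ and 3531.7, 3442.4 and 2378.9 in FSJ. All EC1118 arrays lay above all M25 arrays. BAT1 was 1.42-fold higher in EC1118 in SJ (2960 ± 225 against 2081 ± 129; SD, n = 3; log2 difference 0.51, SE 0.14, limma adjusted p = 0.0202) and 1.44-fold higher in FSJ (0.53, SE 0.14, adjusted p = 0.0104). For lipids the log2 differences were 0.036 in M25 (95% interval -0.26 to 0.33) and 0.055 in EC1118 (95% interval -0.24 to 0.35), and neither passed.

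The BAT1 call in SJ was lost without M25 in SJ replicate 3 (adjusted p = 0.0796) or EC1118 in SJ replicate 1 (0.0762) or 3 (0.0506). The one in FSJ was lost with arrays centred on their medians (0.131) and with only the 2 groups in the fit (0.0505). Centring moved the median log2 difference of all probe sets between the strains in FSJ from 0.13 to -0.10, and that of the lipid effect in M25 from -0.092 to 0.06. The ATF1 and BAT1 differences in FSJ, of 0.62 and 0.53, are to be read beside that shift.

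BAT2, for which no difference passed the test, gave 429.8, 358.6 and 329.2 in M25 in SJ, against 643.9, 593.7 and 630.1 in M25 in FSJ and 569.8, 540.6 and 589.8 in EC1118 in SJ. EC1118 in FSJ gave 605.4, 968.8 and 374.9, a range that held every other BAT2 group but part of M25 in SJ. The lipid effect in M25 was 0.75 on the log2 scale (SE 0.26, 1.68-fold, 373 ± 51.7 to 623 ± 25.9; SD, n = 3), without overlap. It did not pass in limma (adjusted p = 0.0954, and 0.0141 to 0.236 over the alternatives). The fit uses 1 spread per probe set over all groups. With only the M25 groups in the fit the adjusted p was 0.0141, without EC1118 in FSJ replicate 2 it was 0.0192, without replicate 3 it was 0.0163, and with centred arrays 0.0476. The strain difference in SJ was 0.61 (SE 0.26, adjusted p = 0.123), and 0.00973 with only the SJ groups in the fit, 0.0245 without EC1118 in FSJ replicate 2 and 0.0211 without replicate 3. In FSJ the strains gave -0.044 (95% interval -0.61 to 0.52), and the averaged lipid effect was 0.42 (adjusted p = 0.184; 0.0108 without EC1118 in FSJ replicate 3).

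**Figure D4:**
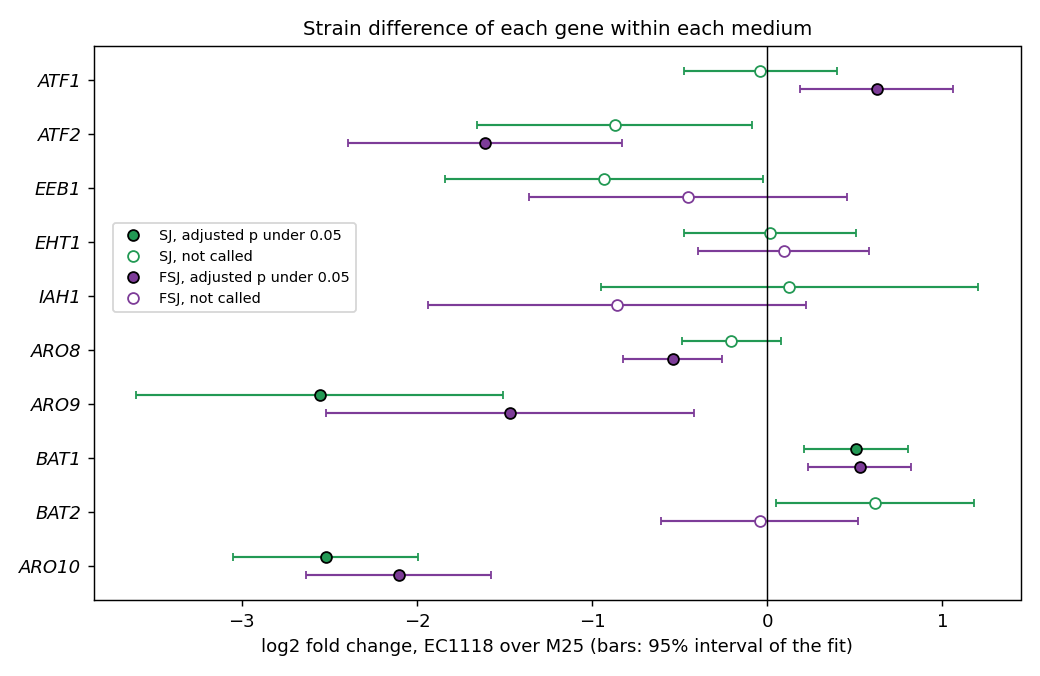
Fitted log2 fold change of EC1118 over M25 (horizontal axis) for each gene in SJ (green) and FSJ (purple), with bars for the 95% interval of the fit, not adjusted for the number of genes. Filled points passed the threshold. ARO9 and ARO10 are lower and BAT1 higher in EC1118 in both media.

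How the variation of each gene divided between strain, medium and replicates differed across the pathway, as a description of these 12 arrays. The strain took 92.5% of the sum of squares of log2 signal for ARO10, 76.0% for BAT1, 67.0% for ARO9 and 52% for ATF2. The medium had its largest shares in ARO8 (40.1%), ATF1 (31.7%) and BAT2 (24.9%). For EHT1, IAH1 and EEB1 most of the variation lay between replicates (98.3%, 75.9% and 60.7%).

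**Figure D5:**
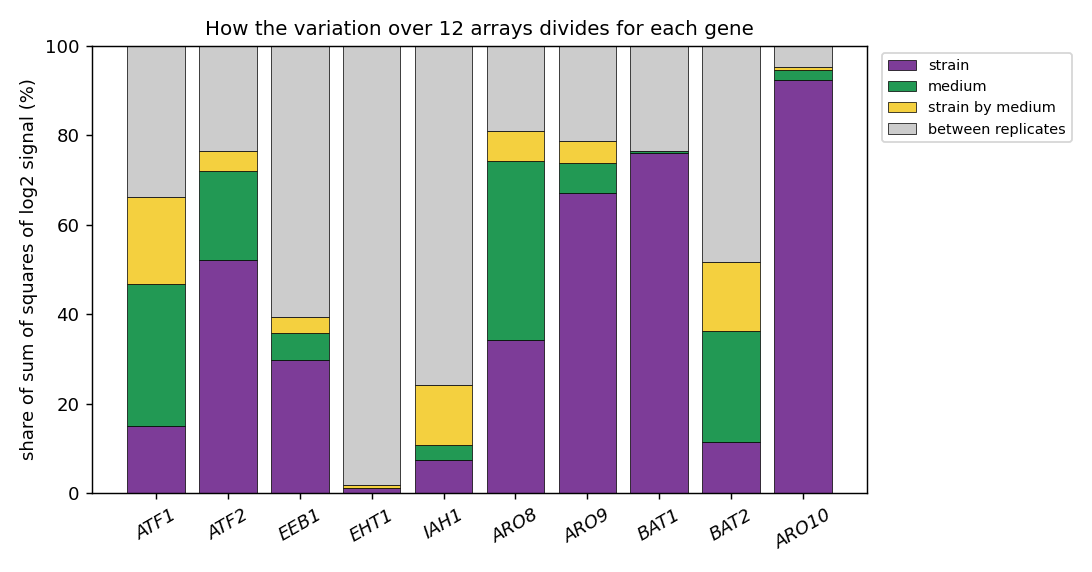
Share of the sum of squares of log2 signal over the 12 arrays (vertical axis, percent) that goes with strain, medium, their interaction and the spread between replicates, for each gene. Strain makes up 92.5% for ARO10 and the spread between replicates 98.3% for EHT1.

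Ratios within an array do not depend on how arrays were scaled, and set the change of a gene against that of a partner. The 5 ratios were ATF1 and ATF2 over the esterase gene IAH1, EHT1 over EEB1, BAT2 over BAT1 and ARO9 over ARO8, each compared between media within strains and between strains within media. Of these 10 exact two-sided permutation tests none passed after Benjamini-Hochberg adjustment (smallest adjusted p = 0.12; the smallest p the design allows is 0.005), and 3 had an unadjusted p under 0.05. The log2 ratio of ARO9 over ARO8 differed between FSJ and SJ by -1.76 for M25 and by -0.34 for EC1118, a mean of -1.05 (exact permutation p = 0.04, adjusted p = 0.12). The ARO9 signals of EC1118 were only 1.35 to 2.49 times the background, which limits how far a fall could show there. Between EC1118 and M25 the ratio of ARO9 over ARO8 differed by a mean of -1.64 over the media (exact permutation p = 0.02, adjusted p = 0.12), and ATF2 over IAH1 by a mean of -0.88 (exact permutation p = 0.03, adjusted p = 0.12). BAT2 over BAT1 had a mean lipid difference of 0.38, made up of 0.71 in M25 and 0.037 in EC1118 (exact permutation p = 0.06, adjusted p = 0.12). ATF1 over IAH1 went opposite ways with lipids, -1.004 in M25 and 0.65 in EC1118, a mean of -0.18 (exact permutation p = 0.735).

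The 10 genes were set beside 76 others that supply, follow or regulate their steps, of which 74 passed the filter. The 2 left out, ARO80 and the permease gene AGP2, were under the background on all 12 arrays. Of the 74, 5 rose and 3 fell with lipids in M25, 1 rose in EC1118, and 7 rose and 5 fell on average, to be read against the 8.75%, 1.85% and 9.09% of all probe sets called in either direction. Their median log2 differences were 0.072, 0.036 and 0.043, against -0.092, 0.065 and -0.012 for all probe sets. In the interaction none passed in limma, with 15 at an unadjusted p under 0.05. Between strains, 8 were higher and 9 lower in EC1118 in SJ, and 15 higher and 12 lower in FSJ, against 19.8% and 35.1% of all probe sets. The averaged count, 7 and 5 of the 74, lay above its share of 9.09%, and the other counts lay nearer to theirs. The genes were not tested as a set, so none of these counts is read as an enrichment.

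Among amino acid permeases, 2 of 7 rose and 1 fell on average. This count and those of the lists that follow are small and stand beside 9.09% of all probe sets called for the averaged effect. GAP1, the general amino acid permease, rose in both strains, by 1.02 (log2) for M25 (limma adjusted p = 0.00365) and 0.79 for EC1118 (adjusted p = 0.0323), and was the 1 gene of the 74 called in EC1118. BAP2, the branched-chain amino acid permease, rose by 0.51 on average (adjusted p = 0.0493). MUP1, the methionine permease, fell by 1.46 in M25 (adjusted p = 0.00253).

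In amino acid synthesis 1 of 12 aromatic and 2 of 9 branched-chain genes rose on average and none fell. ARO2, chorismate synthase, went from 3079 ± 181 to 4239 ± 112 in M25 (SD, n = 3; log2 difference 0.46, SE 0.085, limma adjusted p = 0.00717) and had 0.079 in EC1118 (adjusted p = 0.699). ILV6, the regulatory subunit of acetolactate synthase, likewise rose by 0.50 in M25 (SE 0.10, adjusted p = 0.0109) beside 0.053 in EC1118 (adjusted p = 0.852). LEU9, an isopropylmalate synthase, rose by 0.55 on average (adjusted p = 0.0389). In FSJ, ARO2 and ILV6 were lower in EC1118 than in M25, by log2 differences of -0.72 (adjusted p = 6.88e-05) and -0.78 (adjusted p = 0.000123), as ARO8 was. The M25 arrays in FSJ also enter the lipid effects for which these genes were named. Between strains in FSJ, 4 of the 12 aromatic genes were lower in EC1118 and 0 higher. Of the 9 branched-chain genes 2 were lower and 2 higher, and 35.1% of all probe sets were called.

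Of the other 4 decarboxylase genes, PDC6, a minor pyruvate decarboxylase, rose in M25 from 118 ± 1.96 to 381 ± 105 (SD, n = 3; log2 difference 1.65, SE 0.31, limma adjusted p = 0.00805). Its EC1118 means were 104 ± 24.3 and 100.1 ± 52 (log2 difference -0.14, adjusted p = 0.873), and the interaction of -1.79 did not pass (adjusted p = 0.148). THI3, a regulator of thiamine genes related to the decarboxylases, rose by 0.41 on average (adjusted p = 0.0498).

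Of 11 alcohol dehydrogenase and aldehyde reductase genes 2 fell on average, ADH6, an NADPH-dependent enzyme of broad range (by 0.61, limma adjusted p = 0.0296), and GRE2, a reductase of methylglyoxal and isovaleraldehyde (by 0.65, adjusted p = 0.0455). ADH6 was also higher in EC1118 than in M25, by 1.56 in SJ (adjusted p = 0.000331) and 1.90 in FSJ (adjusted p = 5.21e-05) on the log2 scale. In this list 2 of 11 genes were higher in EC1118 in SJ (19.8% of all probe sets called), and 2 higher and 1 lower in FSJ (35.1%). ADH7 stood further apart, with SJ and FSJ means of 19.9 and 12.4 in M25 and of 210 and 235 in EC1118. In M25 it was over the background on 1 of 3 arrays in each medium. None of the 6 genes for aldehyde dehydrogenases and acid export passed with lipids in limma on average (1 at an unadjusted p under 0.05), nor did any of the 3 other ester enzyme genes (0 at an unadjusted p under 0.05). Of the 11 genes for acetyl-CoA and acyl-CoA supply only ACS2, the acetyl-CoA synthetase of fermenting cells, fell on average (by 0.29, adjusted p = 0.0306). OLE1, the fatty acid desaturase gene known to be repressed by unsaturated fatty acids as ATF1 is, had 0.22 in M25 (adjusted p = 0.171) and -0.20 in EC1118 (adjusted p = 0.347).

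Among 11 regulators with a signal, 1 rose and 1 fell on average. DAL80, a GATA-type repressor of nitrogen genes, rose by 0.92 (SE 0.14, limma adjusted p = 0.00211), and ROX1, the repressor of hypoxic genes, fell by 1.67 (SE 0.24, adjusted p = 0.000993). ROX1 went from 369 ± 114 to 92.3 ± 46.6 in M25 (log2 difference -2.08, limma adjusted p = 0.00336) and from 420.5 ± 20.1 to 175 ± 10.9 in EC1118 (SD, n = 3; log2 difference -1.26, adjusted p = 0.087), without overlap in either strain. GCN4, the activator of amino acid synthesis, had 0.11 on average (adjusted p = 0.352) and LEU3, which regulates branched-chain genes, had -0.091 (adjusted p = 0.722).

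The genes whose log2 signals ran most like a member's were ranked by Pearson correlation over the 12 arrays among 5360 genes, as a description. The points share their arrays and so include the differences between groups. Nearest to ARO8 were MET3, ATP sulfurylase (r = 0.977), MHT1, a homocysteine methyltransferase (0.972), and the cyclin gene PCL5 (0.972). BAT1 ran closest to LEU2, the next-to-last step of leucine synthesis (0.948), AVL9 (0.945) and DLD2 (0.942). BAT2 had ILV2, the catalytic subunit of acetolactate synthase (0.878), LYS1 (0.873) and ADH3 (0.858). For ARO9 they were the small nucleolar RNA gene SNR5 (0.936), YLL066W-B (0.926) and ARO10 (0.925), and for ARO10 SNR5 (0.980), SNR31 (0.971) and NCW2 (0.963). For ATF1 they were MDM12 (0.978), DDL1 (0.961) and COT1 (0.952), and for ATF2 DFG10 (0.966), YIP5 (0.932) and YNL134C (0.923). EEB1 had TAF14 (0.949), SPE3 (0.938) and HAL1 (0.896), EHT1 had IRC15 (0.872), ATP2 (0.871) and PPH22 (0.861), and IAH1 had RHO1 (0.913), FKH2 (0.909) and RDN5-1 (0.902). Within the groups, as deviations from the group means, ARO10 and NCW2 gave -0.45, and all the other pairs named here gave 0.71 to 0.96. The pairs were picked for their likeness on these same arrays.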

How the data were processed

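The authors deposited 1 intensity per probe set and array on a linear scale, and the submitters' processing notes name MAS5, for which no version or scaling target was found. Of 9335 probe sets, 60 controls were left out. The filter asked for signals over the background, the 25th percentile of an array, on at least 3 of the 12 arrays, and left 7349. Genes were named from a platform table, only from probe sets with 1 symbol, and by the probe set with the highest mean where a gene had several. Signals under 1 were set to 1 before log2. The groups of all 12 arrays were fitted with limma 3.58.1 in R 4.3.3 (lmFit, eBayes with an intensity trend). The Benjamini-Hochberg adjustment ran across the 7349.

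The 10 genes, the lists of other pathway genes and the tests were chosen with earlier results of these data known. Besides the 10 genes, the text names listed genes called for a lipid effect (at most 4 per list), OLE1, LEU3, GCN4 and ARO80. It also names the 3 genes most like each member, AGP2 as left out by the filter, and ADH7 for its strain difference. The fit has no replicate block. The labels call the replicates biological and say no more of their origin. Alternatives were the replicate block, no intensity trend, fits of the compared groups alone, quantile normalization, median centring, an offset of 16, raising signals to the background, other filters or none, averages where a gene had several probe sets, and each array left out in turn. Several of them cannot move the log2 difference of the 10 genes, among them raising to the background, the averages, the filters and leaving out an array outside the contrast. These bear only on the spread and the adjustment, so the alternatives are not independent checks.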

Additional observations from a re-analysis of the deposited data

How the results depend on the processing

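Of 60 differences (10 genes in 6 contrasts) 12 were called. The contrasts share arrays, so the 60 are not separate differences, and the 12 are not read as an enrichment. Over all probe sets, the share called in a contrast ran from 0.204% (the interaction) to 35.1% (between strains in FSJ). Of the 12, 6 stayed called under every alternative run. They were ARO8 on average and in FSJ between strains, ARO9 in SJ, ATF2 in FSJ, and ARO10 in both media. None of the 12 changed sign, and 7 uncalled ones were called under some alternative. With 3 arrays a group, the calls within M25 were lost on leaving out single arrays, mostly at about the same log2 difference, and the ARO9 and ARO10 signals near the background in EC1118 limit the size of their folds. The cause of these changes was not tested.

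The count of genes called for lipids in M25, 2 as reported, was 0 with quantile normalization, 1 without the filter, 1 with the replicate block (ATF1 at adjusted p = 0.0501), 1 without the trend, and 0 to 3 over arrays left out. With centred arrays and with only the groups compared it stayed at 2, but ATF1 was lost and BAT2 gained. Calls over all probe sets, 643 as reported, were 432 with quantile normalization, 602 without the filter, 568 with the block and 522 without the trend. They were 782 with centred arrays, 696 with only the groups compared, and 298 to 817 over arrays left out. The block changed no other call of a member. The deviations of arrays of the same number had r of -0.16 to 0.14 over 18 pairs of arrays, 2 of them over 0.1. These values cannot settle whether such arrays had a common origin, which the labels do not state. The averaged count was 1 to 2 over arrays left out, where 412 to 920 of all probe sets were called. The strain count in SJ was 5 with only the groups compared and 2 to 5 over arrays left out. Over all probe sets these calls (1454 as reported) were 1812 and 1011 to 1660. The strain count in FSJ was 3 with only the groups compared, where the calls over all probe sets (2579 as reported) were 1786. Over all probe sets, the calls in M25 (643) were 328, 315 and 298 without M25 in SJ replicate 1, 2 and 3 and 406 without M25 in FSJ replicate 2, those in EC1118 (136) were 48 with only the groups compared, those of the average (668) were 412 without M25 in SJ replicate 3, and those of the interaction (15) ran from 2 to 117.

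Sign changes fell on 22 uncalled differences, at adjusted p of 0.249 to 0.996. With quantile normalization EHT1 had 0.018 in M25 and 0.034 on average, and BAT1 -0.041 in M25. With centred arrays EHT1 had 0.11 in M25, -0.066 in EC1118, 0.021 on average, -0.17 in the interaction and -0.14 between strains in FSJ, BAT1 had -0.045 in EC1118 and -0.23 in the interaction, and BAT2 -0.0084 in EC1118. Over arrays left out, the ranges that crossed 0 for lipids in M25 were -0.017 to 0.17 (EEB1), -0.14 to 0.12 (EHT1), -0.053 to 0.51 (IAH1) and -0.016 to 0.069 (BAT1). In EC1118 they were -0.23 to 0.029 (ATF1), -0.099 to 0.90 (EEB1), -0.11 to 0.29 (EHT1), -0.23 to 0.15 (ARO9), -0.046 to 0.24 (BAT1) and -0.25 to 0.44 (BAT2). On average they were -0.013 to 0.48 (EEB1), -0.077 to 0.12 (EHT1), -0.45 to 0.12 (IAH1) and -0.0053 to 0.14 (BAT1), and in the interaction -0.17 to 0.82 (EEB1), -0.083 to 0.33 (EHT1) and -0.082 to 0.20 (BAT1). Between strains they were -0.13 to 0.0030 (ATF1), -0.24 to 0.16 (EHT1) and -0.17 to 0.39 (IAH1) in SJ, and -0.070 to 0.27 (EHT1) and -0.39 to 0.30 (BAT2) in FSJ. The medium difference of ATF1 over IAH1 ran from -0.53 to 0.044.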
